A study of Mus musculus with 14 samples.

Results

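The choroid plexus epithelial genes described here are Ttr, Folr1, Kl, Clic6, Otx2, Kcnj13, Kcne2, Cldn2, Calml4 and Sostdc1. These 10 genes were found by symbol among the 55536 Ensembl genes of the count table, and all 10 passed the filter of at least 10 counts over the libraries. They were selected on their CPM values in these same libraries, which were seen to vary together, so levels and differences between groups are given as a description and no test of them is used as support. Poly(A) RNA of the hippocampus was sequenced from mice at 10 months of age, all on a C57BL/6 background and perfused with cold PBS before dissection. The 4 MRL mice are B6.MRL-Faslpr/J, which carry the lpr mutation of the death receptor gene Fas and develop a lupus-like disease. The 4 MRL-IRAK4-KD mice carry lpr together with a kinase-dead form of IRAK4, the kinase that relays signals of Toll-like and interleukin-1 receptors. The 3 C57BL/6 mice carry neither change, and the 3 mice labelled IRAK4-KD are described as carrying the kinase-dead form alone, which the Fas transcripts of 1 of them went against. The study asked how IRAK4 acts in the brain of lupus-prone mice. Whether the mice of a group were littermates is not given in the sources used here, nor is the breeding that gave each group.

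The choroid plexus is a folded sheet of epithelium over leaky capillaries that hangs into the ventricles of the brain and makes cerebrospinal fluid. Its epithelial cells secrete carrier proteins, take vitamins from blood into the fluid, move ions and water, and seal the gap between blood and fluid with tight junctions. The hippocampus borders the lateral ventricle and holds no choroid plexus of its own, but a dissected hippocampus can carry some of it. How much these samples carried is not given in the sources used here. In whole-tissue RNA, fewer epithelial cells and less RNA in each cell cannot be told apart. Ttr encodes transthyretin, which carries thyroid hormone and retinol, and Sostdc1 a secreted antagonist of BMP and Wnt signals. Folr1 encodes the folate receptor that passes folate into the fluid, and Kl encodes klotho, a co-receptor for FGF23 that neurons make as well. Kcnj13 and Kcne2 encode a potassium channel and a channel subunit of the apical membrane, Clic6 a chloride intracellular channel protein, and Cldn2 the pore-forming claudin of the tight junction. Otx2 encodes the homeodomain factor that maintains choroid plexus identity, and Calml4 a calmodulin-like protein of epithelial cells.

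RefSeq start sites on GRCm38.p6 were at hand for 6 of the 10 genes, in 10 windows of 250 bases before a start. The windows of Kcnj13, Kcne2, Cldn2 and Kl, none of which holds a base of an annotated exon, are shown because Kcnj13 and Kcne2 kept the order of libraries that most of the set had, while Cldn2 and Kl departed from it. Each runs 5′ to 3′ on the strand of its gene, and capitals mark the TATA box core TATAAA.
Kcnj13, chr1:87394730-87394979, minus strand: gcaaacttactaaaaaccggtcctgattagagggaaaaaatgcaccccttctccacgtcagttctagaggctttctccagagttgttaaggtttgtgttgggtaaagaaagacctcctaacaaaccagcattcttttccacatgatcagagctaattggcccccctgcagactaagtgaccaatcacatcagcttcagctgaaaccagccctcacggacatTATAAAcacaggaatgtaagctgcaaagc
Kcne2, chr16:92292139-92292388, plus strand: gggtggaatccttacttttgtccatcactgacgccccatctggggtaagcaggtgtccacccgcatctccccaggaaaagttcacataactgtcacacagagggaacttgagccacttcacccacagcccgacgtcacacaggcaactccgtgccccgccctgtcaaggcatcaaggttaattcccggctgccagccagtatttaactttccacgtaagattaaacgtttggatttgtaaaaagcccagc
Cldn2, chrX:139800558-139800807, plus strand: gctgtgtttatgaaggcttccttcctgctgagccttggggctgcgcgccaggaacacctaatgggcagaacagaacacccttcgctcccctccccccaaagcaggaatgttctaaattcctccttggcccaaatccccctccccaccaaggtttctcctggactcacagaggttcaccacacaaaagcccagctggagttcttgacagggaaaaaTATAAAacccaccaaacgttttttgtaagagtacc
Kl, chr5:150952357-150952606, plus strand: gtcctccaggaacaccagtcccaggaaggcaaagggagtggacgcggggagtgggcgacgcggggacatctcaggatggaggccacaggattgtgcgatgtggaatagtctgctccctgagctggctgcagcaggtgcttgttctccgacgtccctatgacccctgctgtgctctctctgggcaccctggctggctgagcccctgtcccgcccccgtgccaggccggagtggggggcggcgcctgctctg
TATAAA stood 29 bases before the start of Kcnj13 and 35 bases before that of Cldn2, and the windows of Kcne2 and Kl held none. On either strand it was found in 12.4% of all 32817 windows of this length and in 3 of the 10 windows of these genes. The core bound by OTX2, TAATCC, was searched on both strands and was found in 1 of the 10 windows, an Otx2 window, against 6.25% of all windows. All 250 bases of that Otx2 window lie in annotated exons. The letters of these cores do not overlap in the windows shown, and a match or its absence is a description of the sequence alone.

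Total counts ranged from 279941472 to 572398312 per library. These are counts that StringTie derives from coverage, at 1.40 to 2.08 for each sequenced read, so they are not numbers of molecules. In MRL-IRAK4-KD replicate 4, 23.8% of the 16104 genes with a mean of at least 1 CPM (counts relative to library size, scaled by the TMM method) lay more than 2-fold from the median of the other libraries. For the other 13 libraries this share was between 0.590% and 2.28%. That library also had 1.40 counts per read against 1.80 to 2.08 elsewhere, and a qPCR concentration of 13.48 nM against 23.49 to 27.55 nM. In the check of the labels, the transcript Fas-201 had 345 to 584 counts in C57BL/6 libraries, 360 and 386 in IRAK4-KD replicates 1 and 2, and 0 in all 8 lpr libraries. The library labelled IRAK4-KD replicate 3 also had 0, with 514 counts of the transcript Fas-204 that marks the lpr libraries, and so went against its label. Irak4 was at 1.54 to 2.72 CPM in all 14 libraries, which says nothing of a kinase-dead protein. Defining genes of the hippocampus were present throughout, with Prox1 of dentate granule cells at 55.9 to 125 CPM. Fold changes, and the other summaries that these 2 libraries moved, are therefore also given without them.

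Transthyretin made up most of the signal of the set, and its log2 levels had the highest SD of the 10 genes, both with all libraries (2.13) and without MRL-IRAK4-KD replicate 4 (1.79). Ttr (ENSMUSG00000061808.4, chromosome 18 of mm10, 20665280 to 20674321) was at 187, 48.5, 1269 and 1527 CPM in MRL replicates 1 to 4 and at 1681, 478, 109.9 and 7631 CPM in MRL-IRAK4-KD replicates 1 to 4. In C57BL/6 mice it was at 81.3, 136 and 392 CPM, and in IRAK4-KD mice at 122, 1327 and 134 CPM. Each of the lpr and IRAK4-KD groups thus held both high and low libraries, and all 4 groups overlapped. The highest library was 157-fold above the lowest, or 34.7-fold with MRL-IRAK4-KD replicate 4 left out, a narrower span than the 83.7-fold of Cldn2. The mean of the MRL mice was 758 ± 749 CPM (SD, n = 4) and that of the C57BL/6 mice 203 ± 166 CPM (SD, n = 3). MRL-IRAK4-KD mice averaged 2475 ± 3502 CPM (SD, n = 4) and IRAK4-KD mice 528 ± 692 CPM (SD, n = 3). Without MRL-IRAK4-KD replicate 4 the MRL-IRAK4-KD mean was 756 ± 822 CPM (SD, n = 3), close to that of MRL. Without the library labelled IRAK4-KD replicate 3, the IRAK4-KD mean was 725 ± 852 CPM (SD, n = 2). Ttr made up 67.5% to 97.4% of the summed CPM of the 10 genes and 0.00484% to 0.736% of all counts of a library.

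Sostdc1 (ENSMUSG00000036169.6, chromosome 12, 36314139 to 36318452), the other secreted product, followed the same order on a smaller scale. Its levels were 3.29, 1.84, 8.97 and 8.38 CPM in MRL and 11.6, 4.99, 2.97 and 20.9 CPM in MRL-IRAK4-KD replicates 1 to 4. They were 2.43, 2.98 and 4.18 CPM in C57BL/6 mice and 2.69, 10.03 and 2.77 CPM in IRAK4-KD mice. As for Ttr, MRL replicates 3 and 4, MRL-IRAK4-KD replicates 1 and 4 and IRAK4-KD replicate 2 held the 5 highest values of the 14, and MRL replicate 2 the lowest.

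**Figure D1:**
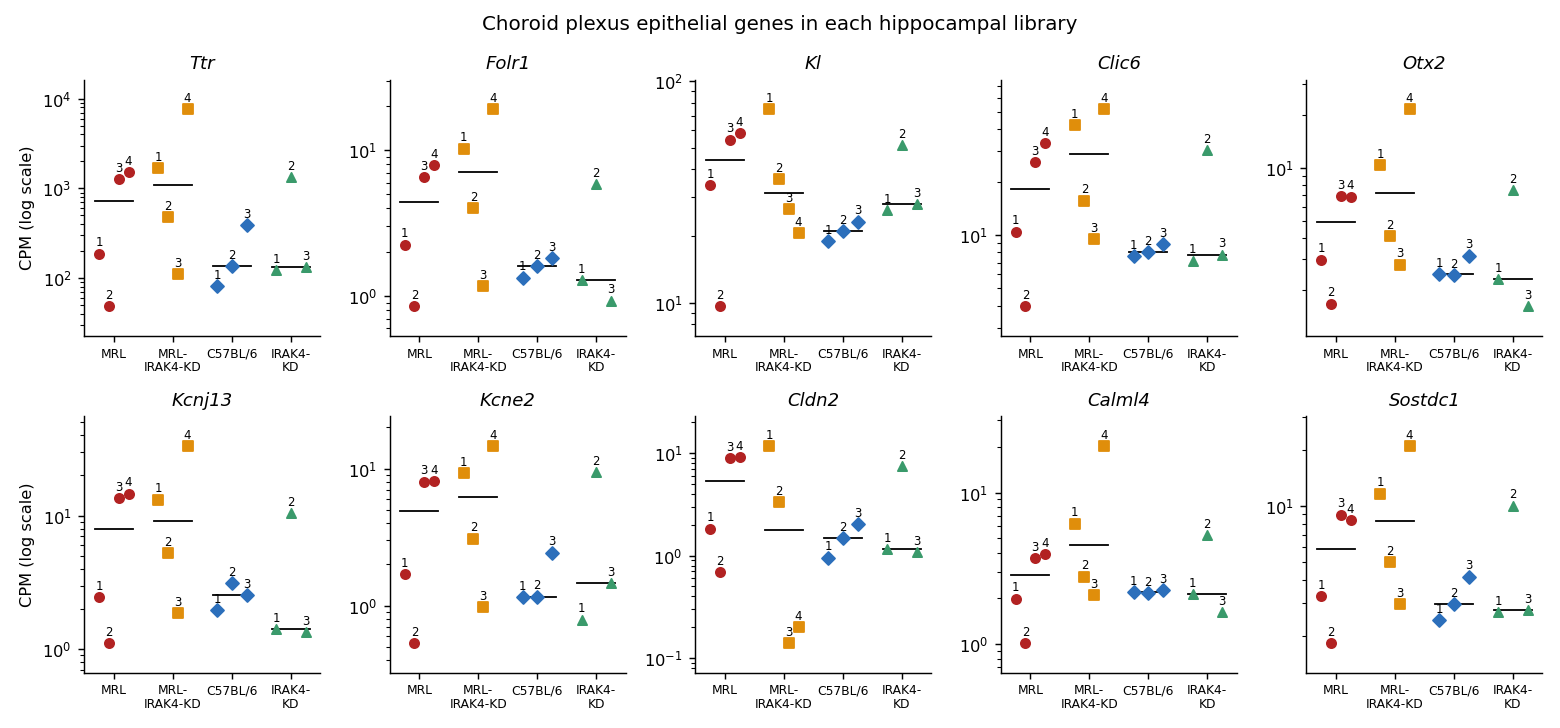
Level of each of the 10 genes in each library, in CPM on a log scale, by group. Points are single mice with the replicate number beside them and lines are group medians. Highs and lows recur in the same libraries from gene to gene, with MRL-IRAK4-KD replicate 4 at the top for 8 genes but low for Kl and Cldn2.

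The folate receptor gene kept to this order as well. Folr1 (ENSMUSG00000001827.12, chromosome 7, 101858331 to 101870788) was at 2.26, 0.851, 6.57 and 7.94 CPM in MRL and at 10.2, 4.03, 1.17 and 19.1 CPM in MRL-IRAK4-KD mice. It was at 1.34, 1.61 and 1.81 CPM in C57BL/6 and at 1.29, 5.87 and 0.930 CPM in IRAK4-KD mice. The gene holds 13 annotated transcripts with at least 10 counts, and its total was more even than their shares. Folr1-202 took 77.3% of the transcript counts in MRL-IRAK4-KD replicate 4 and 0.282% in MRL-IRAK4-KD replicate 1, both of which were high in Folr1. Folr1-201 took 2.79% to 82.1% over the libraries. Such shares rest on how StringTie divides coverage between overlapping transcripts, and the gene also overlaps Anapc15 on the opposite strand.

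Klotho had the narrowest span of the 10 genes with all libraries, 7.76-fold, and departed from their order in MRL-IRAK4-KD replicate 4. Without that library its span was the same, and Calml4, Sostdc1 and Otx2 spanned less. Kl (ENSMUSG00000058488.7, chromosome 5, 150952607 to 150993817) was at 34.1, 9.64, 54.6 and 58.4 CPM in MRL and at 74.8, 36.1, 26.5 and 20.6 CPM in MRL-IRAK4-KD mice. In C57BL/6 mice it was at 18.9, 21.1 and 23.3 CPM, and in IRAK4-KD mice at 26.2, 51.7 and 27.9 CPM. MRL-IRAK4-KD replicate 4, the highest library for Ttr, was the 12th of 14 for Kl. Kl was the 1 gene whose groups did not overlap in a comparison, since all 3 IRAK4-KD libraries lay above all 3 C57BL/6 libraries. Of all 38070 genes tested, 11.2% had groups that did not overlap there, and the gene did not pass the test (edgeR adjusted p = 1).

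The 3 channel genes kept the order of Ttr, with the same 5 libraries on top. Kcnj13 (ENSMUSG00000079436.3, chromosome 1, 87386363 to 87394729) was at 2.44, 1.11, 13.5 and 14.6 CPM in MRL and at 13.2, 5.21, 1.88 and 33.2 CPM in MRL-IRAK4-KD mice. It was at 1.96, 3.14 and 2.56 CPM in C57BL/6 and at 1.42, 10.4 and 1.35 CPM in IRAK4-KD mice. Kcnj13 lies within Gigyf2 on the opposite strand. Where exons of the 2 genes overlap, reads could be told apart only by strand, and whether strand was used is not given. Gigyf2 stayed between 59.3 and 82.5 CPM. Kcne2 (ENSMUSG00000039672.12, chromosome 16, 92292389 to 92298129) was at 1.70, 0.534, 8.05 and 8.16 CPM in MRL and at 9.26, 3.09, 0.981 and 14.6 CPM in MRL-IRAK4-KD mice. In C57BL/6 and IRAK4-KD mice its levels were 1.16, 1.17 and 2.44 CPM and 0.793, 9.48 and 1.46 CPM. The 2 potassium channel genes thus spanned 29.7-fold and 27.4-fold from the lowest to the highest library, or 13.1-fold and 17.8-fold without MRL-IRAK4-KD replicate 4. Clic6 (ENSMUSG00000022949.9, chromosome 16, 92485736 to 92541243) was at 10.5, 3.96, 26.1 and 33.3 CPM in MRL and at 42.0, 15.7, 9.53 and 51.6 CPM in MRL-IRAK4-KD mice. It was at 7.62, 7.99 and 8.90 CPM in C57BL/6 and at 7.19, 30.3 and 7.76 CPM in IRAK4-KD mice, a narrower span.

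The tight junction gene Cldn2 (ENSMUSG00000047230.6, chromosome X, 139800828 to 139811386) followed Ttr in 12 libraries and was close to absent in the other 2. Its levels were 1.84, 0.693, 8.97 and 9.11 CPM in MRL and 11.7, 3.32, 0.140 and 0.200 CPM in MRL-IRAK4-KD replicates 1 to 4. They were 0.953, 1.48 and 2.02 CPM in C57BL/6 and 1.16, 7.47 and 1.09 CPM in IRAK4-KD mice. MRL-IRAK4-KD replicates 3 and 4 thus lay below all 12 others, although replicate 4 was the highest library for 8 of the 10 genes. Its main transcript Cldn2-201, of 3044 bases, had 0 counts in these 2 libraries and at least 352 in every other one. What was counted there, 61 and 62 counts, fell on the shorter Cldn2-202, which had at most 18 counts elsewhere. Per 1000 CPM of Ttr, Cldn2 was at 0.0262 CPM in MRL-IRAK4-KD replicate 4 against a median of 7.02 over the libraries. In that library 1.09% of the 16104 genes lay as far below the median of the others as Cldn2 or farther, and in replicate 3 this held for 0.0745% of genes, 12 in all. Of the 7 other genes with a mean of at least 0.1 CPM within 250000 bases, all 7 were within the range of the 12 other libraries in replicate 3, while in replicate 4 3 were below it and 1 was above. Morc4 was at 4.76 CPM in replicate 3 and 2.94 in replicate 4, against 3.63 to 5.18 in the 12 others. Rbm41 was at 4.45 CPM in replicate 3 but at 0.448 in replicate 4, against 4.16 to 7.74. What these values have to do with those of Cldn2 was not tested.

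**Figure D2:**
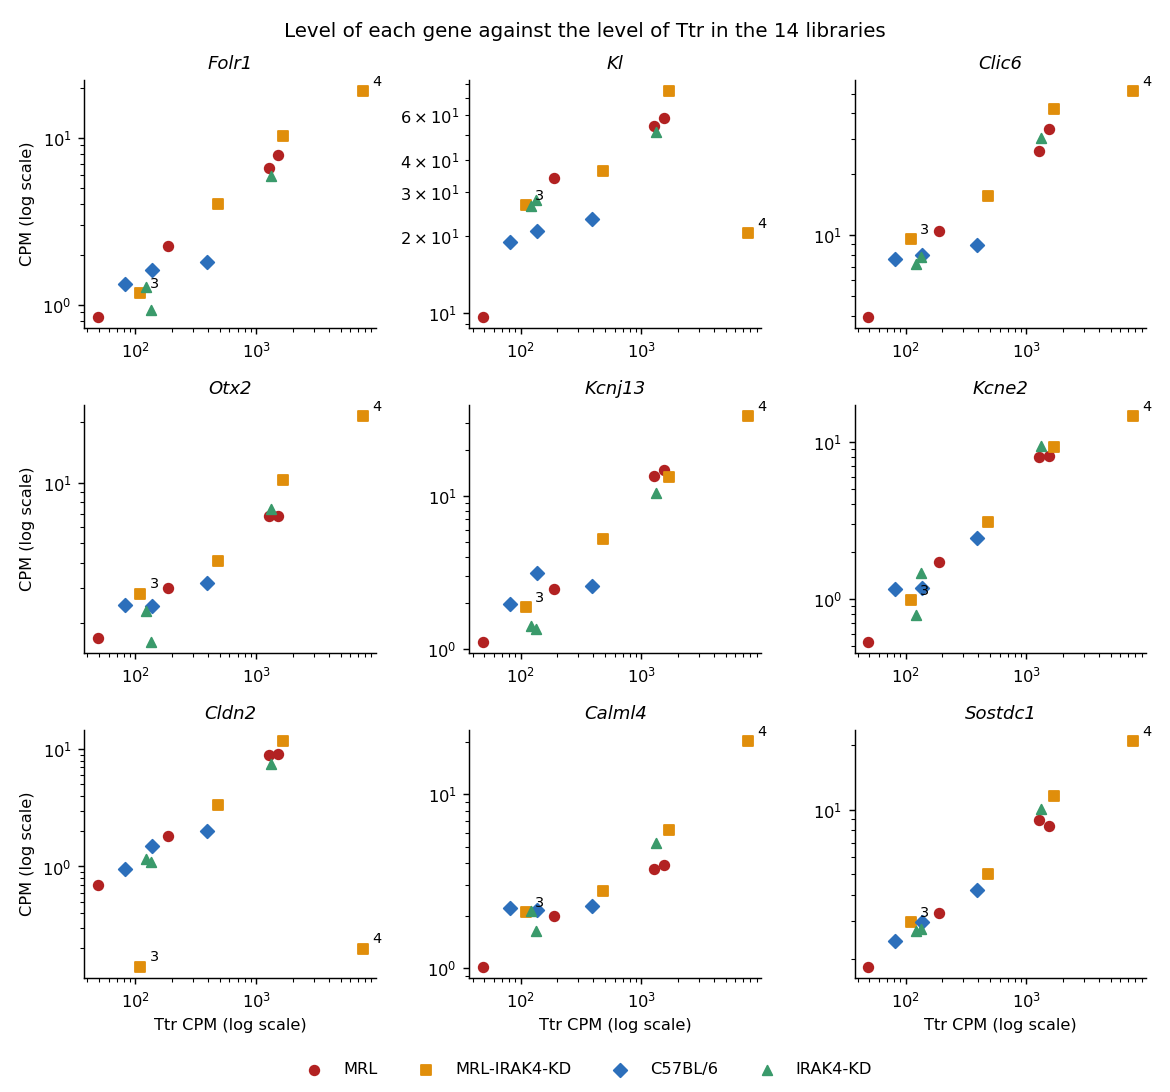
Level of each of the other 9 genes against that of Ttr, both in CPM on log scales, for the 14 libraries. Points are single mice, coloured by group, and the numbers mark MRL-IRAK4-KD replicates 3 and 4. Points rise together in every panel, except that replicate 4 falls to 20.6 CPM for Kl and replicates 3 and 4 to 0.140 and 0.200 CPM for Cldn2.

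Otx2 and Calml4 completed the set. Otx2 (ENSMUSG00000021848.16, chromosome 14, 48657677 to 48673819) was at 2.99, 1.68, 6.86 and 6.84 CPM in MRL and at 10.3, 4.07, 2.80 and 21.5 CPM in MRL-IRAK4-KD mice. It was at 2.47, 2.45 and 3.16 CPM in C57BL/6 and at 2.31, 7.45 and 1.62 CPM in IRAK4-KD mice. The factor gene therefore stood highest in the same 5 libraries as the channel genes. Otx2os1, which overlaps Otx2 on the opposite strand, ranged from 0.0270 to 1.24 CPM and was also highest in MRL-IRAK4-KD replicate 4. Calml4 (ENSMUSG00000032246.14, chromosome 9, 62858080 to 62875921) was at 2.00, 1.02, 3.70 and 3.94 CPM in MRL and at 6.23, 2.79, 2.09 and 20.3 CPM in MRL-IRAK4-KD mice. It was at 2.20, 2.16 and 2.26 CPM in C57BL/6 and at 2.13, 5.21 and 1.62 CPM in IRAK4-KD mice. Outside MRL-IRAK4-KD replicate 4 its levels spanned only 6.14-fold, the narrowest span of the 10 genes there.

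Per kilobase of annotated exon, Ttr stood far above the rest, with a median of 244 RPKM (CPM divided by exon length in kilobases) over the 14 libraries. Kl followed at 2.91, Clic6 at 2.56, Kcnj13 at 2.24, Sostdc1 at 2.095, Kcne2 at 1.17, Folr1 at 0.886, Otx2 at 0.728, Calml4 at 0.613 and Cldn2 at 0.499. Ttr was above Kl in all 14 libraries, and Sostdc1 above Kcne2 in all 14. For every other pair of neighbours in this order, the gene with the higher median was the higher one in only 8 to 11 of the 14 libraries, so their order did not hold from mouse to mouse.

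Across the 14 libraries the 10 genes moved as a set. Over the 45 pairs of genes, the median Pearson correlation of log2(CPM + 0.1) was 0.94 and the median Spearman correlation 0.90. Without Kl and Cldn2, the 28 remaining pairs lay between 0.87 and 0.99. Cldn2 had a correlation of 0.45 with the mean of the other 9 genes and Kl one of 0.69. With MRL-IRAK4-KD replicates 4 and 1 left out, the 2 libraries farthest from the median of the mean level, these rose to 0.88 and 0.89. The points share library preparation and depth and the genes had been picked with these values known, so the correlations are descriptions. Slopes of the log2 levels on that of Ttr were all below 1. Without MRL-IRAK4-KD replicate 4, a doubling of Ttr went with a log2 rise of 0.85 in Cldn2, 0.77 in Kcne2, 0.71 in Kcnj13, 0.41 in Kl and 0.35 in Calml4.

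Most of this variation lay inside the groups. Between 10.5% and 27.9% of the variance of each gene in log2(CPM + 0.1) lay between the 4 groups, with a median of 21.5%, while the median over the 16104 genes with a mean of at least 1 CPM was 27.0%. Without MRL-IRAK4-KD replicate 4 the range was 6.98% to 19.8% and the medians were 11.97% and 33.0%. Without the library labelled IRAK4-KD replicate 3, the medians were 20.7% and 25.8%. The standard deviation of these log2 levels over the 14 libraries had a median of 1.26 for the 10 genes and of 0.24 for all genes, and Ttr, with 2.13 the highest of the 10, ranked 28th of the 16104 genes in it.

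In the comparison that the study was built on, MRL against MRL-IRAK4-KD, none of the 10 genes passed edgeR's quasi-likelihood test at an adjusted p of 0.05. Of the 38070 genes tested, 0.0972% passed. At an unadjusted p below 0.05 the count was 1 of 10 (Calml4) against 11.4% of all genes, and DESeq2 and limma-voom, which called 1.04% and 0.559% of all genes, called 0 of the 10 as well. The groups overlapped for all 10 genes, while for 5.26% of all genes they did not. The median log2 fold change of MRL over MRL-IRAK4-KD was -0.80 for the 10 genes and 0.00 for all genes. Ttr differed by -1.71 (SE 1.25), Calml4 by -1.56 (SE 0.64), Otx2 by -1.07 (SE 0.64) and Kl by -0.01 (SE 0.48) on the log2 scale. Most of these values rested on 1 library. Without MRL-IRAK4-KD replicate 4 the median was -0.22, and Ttr, Calml4 and Otx2 were at 0.01, -0.47 and -0.31. Kl alone of the 10 genes moved away from 0, to -0.22. Cldn2 stood at 0.42 (SE 1.14) with all libraries and at 0.03 without that one.

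Against C57BL/6, MRL mice gave positive values for all 10 genes, none of which passed the test. No gene of the 38070 passed it (0%), with 5.55% at an unadjusted p below 0.05 against 0 of these 10, and DESeq2 (0.517% of all genes) and limma-voom (0.0998%) also called 0 of the 10. The median log2 fold change was 1.32, with 1.899 (SE 1.39) for Ttr, 1.80 (SE 1.30) for Cldn2, 1.64 (SE 1.04) for Kcnj13, 1.47 (SE 0.90) for Folr1 and 0.27 (SE 0.69) for Calml4. The groups did not overlap for 9.63% of all genes but overlapped for all 10 of these, since MRL replicate 2 was below every C57BL/6 mouse for each gene while MRL replicates 3 and 4 were above every one.

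IRAK4-KD over C57BL/6 likewise gave positive values for all 10 genes with none called, where 0.147% of all genes were. The count at an unadjusted p below 0.05 was 0 of 10 against 3.8% of all genes, and DESeq2 (0.436% of all genes) and limma-voom (0.381%) called 0 of the 10. The median was 0.78 on the log2 scale, with 1.38 (SE 1.43) for Ttr and 1.30 (SE 1.09) for Kcne2. It rested on IRAK4-KD replicate 2 alone, without which it was -0.42. Without the library labelled IRAK4-KD replicate 3, it was 1.19.

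In the last comparison, MRL-IRAK4-KD over IRAK4-KD, 0 of the 10 genes passed, against 0.0735% of all genes. At an unadjusted p below 0.05 these were 0 of 10 and 8.63%, with 0 of the 10 called by DESeq2 (0.743% of all genes) and by limma-voom (0.722%). The groups overlapped for all 10 genes and did not for 8.74% of all genes. The median log2 fold change was 1.16, led by Ttr at 2.23 (SE 1.42) and Folr1 at 1.68 (SE 0.91). It was 0.55 without MRL-IRAK4-KD replicate 4, 0.83 without the library labelled IRAK4-KD replicate 3 and 0.21 without both, but 2.16 without IRAK4-KD replicate 2, where 8 of the 10 genes and 6.36% of all genes had an unadjusted p below 0.05, and none of the 10 passed after adjustment. Whether the difference with the mutation depended on lpr was tested as an interaction, which 0 of 10 genes passed, against 0.00263% of all genes. Unadjusted, 0 of 10 and 4.17% of all genes lay below 0.05, and DESeq2 (0.155% of all genes) and limma-voom (0.0578%) called 0 of the 10. Its median was -0.06, with 0.92 without both libraries and -1.27 without IRAK4-KD replicate 2. These comparisons share groups, so their values are not independent of each other.

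**Figure D3:**
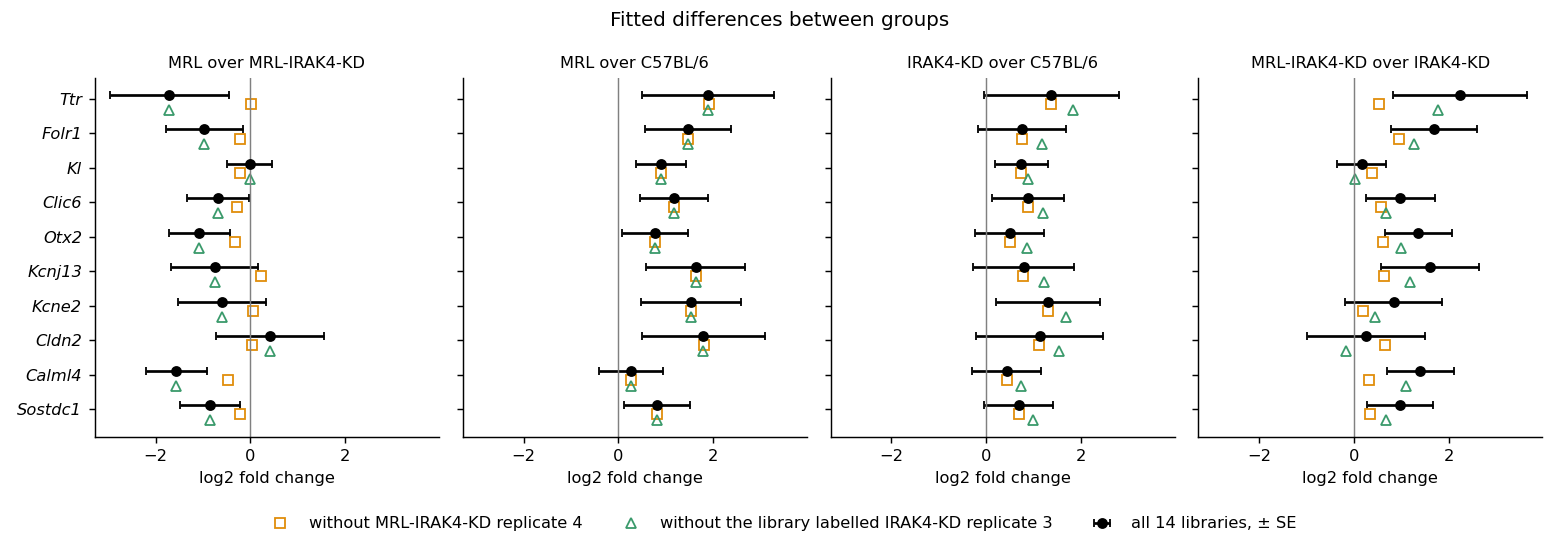
Log2 fold change of each gene in the 4 comparisons, from the edgeR fit with all 14 libraries (points, with standard errors) and with 1 library left out (open symbols). Without MRL-IRAK4-KD replicate 4, MRL over MRL-IRAK4-KD moves toward 0 for every gene but Kl, for Ttr from -1.71 to 0.01. Kl moves from -0.01 to -0.22.

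Levels in MRL-IRAK4-KD replicate 4 also varied with the length and GC content of the transcript over all genes. Over all genes, the median log2 level in that library relative to the median of the others fell from 0.65 in the shortest to -0.54 in the longest of 5 equal bins of main transcript length, the first of which ended at 1595 bases. By GC content it went from -0.43 in the lowest bin to 0.33 in the highest. In the other 13 libraries the medians of these bins lay between -0.22 and 0.14. The 8 choroid plexus genes that were high in that library stood at 2.42 (Clic6) to 5.35 (Ttr) on this scale, above the median of every bin, and have main transcripts of 864 to 3758 bases. Kl, with a main transcript of 5118 bases, stood at -0.44, and Cldn2, with 3044 bases, at -2.69. Within the 8 genes, Clic6 has the longest main transcript and the smallest difference. Calml4 has the shortest but stood at 3.15, below Ttr, whose main transcript has 1186 bases. What part transcript length or GC content has in these differences was not tested.

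**Figure D4:**
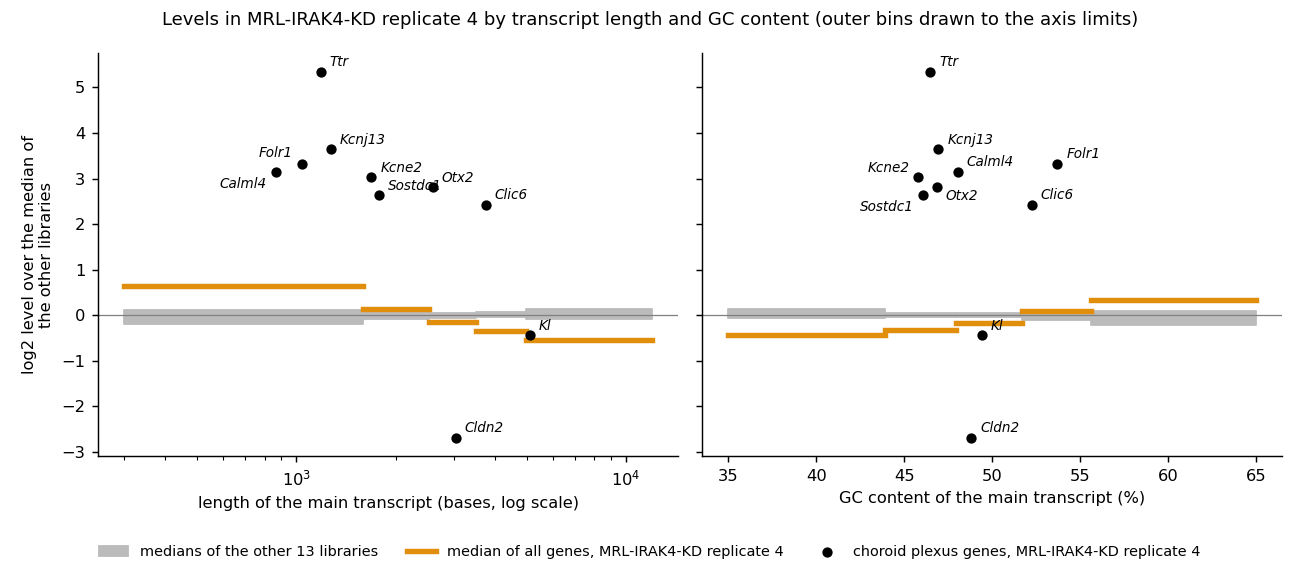
Log2 level in MRL-IRAK4-KD replicate 4 over the median of the other libraries, by length (left) and GC content (right) of the main transcript. Bars are medians over 5 bins of 16093 genes for that library, grey bands the range of the same medians in the other 13, and points the 10 genes. Orange bars fall from 0.65 to -0.54 with length, while 8 genes lie at 2.42 or more.

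Other genes known from this epithelium were read from a list of 35. None was called in any comparison by edgeR, DESeq2 or limma-voom, where 0% to 0.147% of all genes were by edgeR. At an unadjusted p below 0.05 there were 1 in MRL over MRL-IRAK4-KD (11.4% of all genes), 4 in MRL over C57BL/6 (5.55%) and 0 in IRAK4-KD over C57BL/6 (3.8%). There were 5 in MRL-IRAK4-KD over IRAK4-KD (8.63% of all genes) and 0 in the interaction (4.17%). Their median log2 fold changes in these 4 comparisons were -0.17, 0.62, 0.16 and 0.87, and 0.10, 0.62, 0.16 and 0.42 without MRL-IRAK4-KD replicate 4. Of the 35, 19 had a Pearson correlation above 0.8 with the mean log2 level of the 10 genes, and 20 were highest in MRL-IRAK4-KD replicate 4. The share of all genes is not given for either count. In that library 10.1% of all genes with a mean of at least 1 CPM were more than 2-fold above the median of the others. Of the 35, the 5 with the highest mean level were genes that neurons, glia or meninges also express. Among these, Enpp2, the source of autotaxin, ranged from 155 to 708 CPM with a correlation of 0.95 with the 10 genes. Trpm3, a cation channel gene, ranged from 73.6 to 129 CPM (0.74), and the growth factor gene Igf2 from 32.7 to 119.9 CPM (0.65). Atp1b1, a sodium pump subunit, and Slc12a2, the sodium, potassium and chloride cotransporter NKCC1, had correlations of -0.15 and 0.08.

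Of the 16094 other genes with a mean of at least 1 CPM, the 10 whose pattern over the 14 libraries was most like the mean of the 10 genes were Steap1, Slc4a5, Tmem72, Aqp1, Prr32, Mfrp, 1500015O10Rik, Slc2a12, Wdr86 and Rbm47. Pearson correlations ran from 0.99 for Steap1, a metalloreductase gene, to 0.96 for Rbm47. Steap1, the bicarbonate transporter gene Slc4a5, Tmem72, the water channel gene Aqp1 and Mfrp were on the list of 35. Slc4a5 ranged from 0.352 CPM in MRL replicate 2 to 16.5 in MRL-IRAK4-KD replicate 4, Tmem72 from 0.551 to 18.3, and Mfrp from 1.57 to 38.9 in the same libraries. Aqp1 was highest in MRL-IRAK4-KD replicate 1, at 7.73 CPM. Without MRL-IRAK4-KD replicate 4, 8 of the 10 genes stayed among the closest 10.

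Marker lists of tissues next to the hippocampus were read beside these levels. The summed level of 7 ependymal genes was 20.8 to 28.8 CPM in MRL, 29.4 to 89.6 in MRL-IRAK4-KD, 23.7 to 29.5 in C57BL/6 and 23.5 to 32.5 in IRAK4-KD libraries. It was highest in MRL-IRAK4-KD replicate 4, as were 6 of the 7 genes, but not the defining Foxj1, which was at 8.73 CPM there against 5.77 to 13.3 over all libraries. The summed level of 6 genes of meningeal fibroblasts went from 51.3 to 159.7 CPM and that of 4 endothelial genes from 36.9 to 134 CPM, with the highest values in C57BL/6 replicate 2 and MRL replicate 4. Plvap, which marks leaky capillaries such as those under the choroid plexus, was highest in MRL-IRAK4-KD replicate 4, at 12.9 CPM against a low of 5.07. The other endothelial genes were not highest there. Its next highest value, 8.04 CPM, was in MRL replicate 2, the library with the lowest mean level of the choroid plexus genes. In IRAK4-KD replicate 2, where those genes were high, Plvap was at 5.58 CPM. The 3 blood genes summed to 12.7 to 235 CPM, highest in MRL replicate 1, and the 6 genes of thalamus and habenula to 70.4 to 102 CPM. Spearman correlations with the mean level of the choroid plexus genes were 0.34 for the ependymal list, 0.28 for the endothelial, -0.01 for the meningeal, 0.20 for the 3 blood genes and 0.27 for the 6 genes of thalamus and habenula. Without MRL-IRAK4-KD replicate 4 they were 0.17, 0.25, -0.09, 0.05 and 0.08 in this order, and without the library labelled IRAK4-KD replicate 3 0.27, 0.19, -0.18, 0.08 and 0.26.

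Prl of the pituitary reached 69.6 CPM in MRL replicate 3, 1 of the libraries high in choroid plexus genes, and the list of 6 pituitary genes summed to 87.2 CPM there against a median of 2.39. The 6 striatal genes were highest in the library labelled IRAK4-KD replicate 3, at 343 CPM against a median of 91.6, where Drd1 reached 28.8 CPM. That library was among the lower ones for the choroid plexus genes, with a summed level of 180.3 CPM. Of the sources that share Ttr or Otx2 with the choroid plexus, Alb of the liver was at 0 to 0.0696 CPM, with 0.404 to 2.17 CPM for the sum of 4 liver genes, highest in MRL-IRAK4-KD replicate 4. The retinal pigment epithelium list of 4 genes summed to 16.2 to 23.1 CPM, most of it from Rlbp1, at 14.4 to 19.8 CPM. Rpe65 was at 0.246 to 2.24 CPM, Best1 was at 0.937 to 1.41 CPM and Rgr had at most 27 counts in any library. The 8 hippocampal genes summed to 702 to 2192 CPM. The highest sum, in MRL-IRAK4-KD replicate 4, held 1509 CPM of Zbtb20 alone, and the other 7 genes came to 684 CPM there against 409 to 790 CPM over all libraries. Prox1, at 62.4 CPM in that library, was near its lowest level. Spearman correlations with the mean level of the choroid plexus genes were 0.54 for the pituitary list, the highest of all the marker lists. They were 0.33 for the retinal pigment epithelium, 0.23 for the striatal, 0.10 for the liver and 0.10 for the hippocampal list. Without MRL-IRAK4-KD replicate 4 these were 0.50, 0.29, 0.16, -0.12 and -0.13 in this order. Without the library labelled IRAK4-KD replicate 3 they were 0.49, 0.25, 0.47, 0.11 and 0.20. What part the other tissues have in the differences between libraries was not tested.

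**Figure D5:**
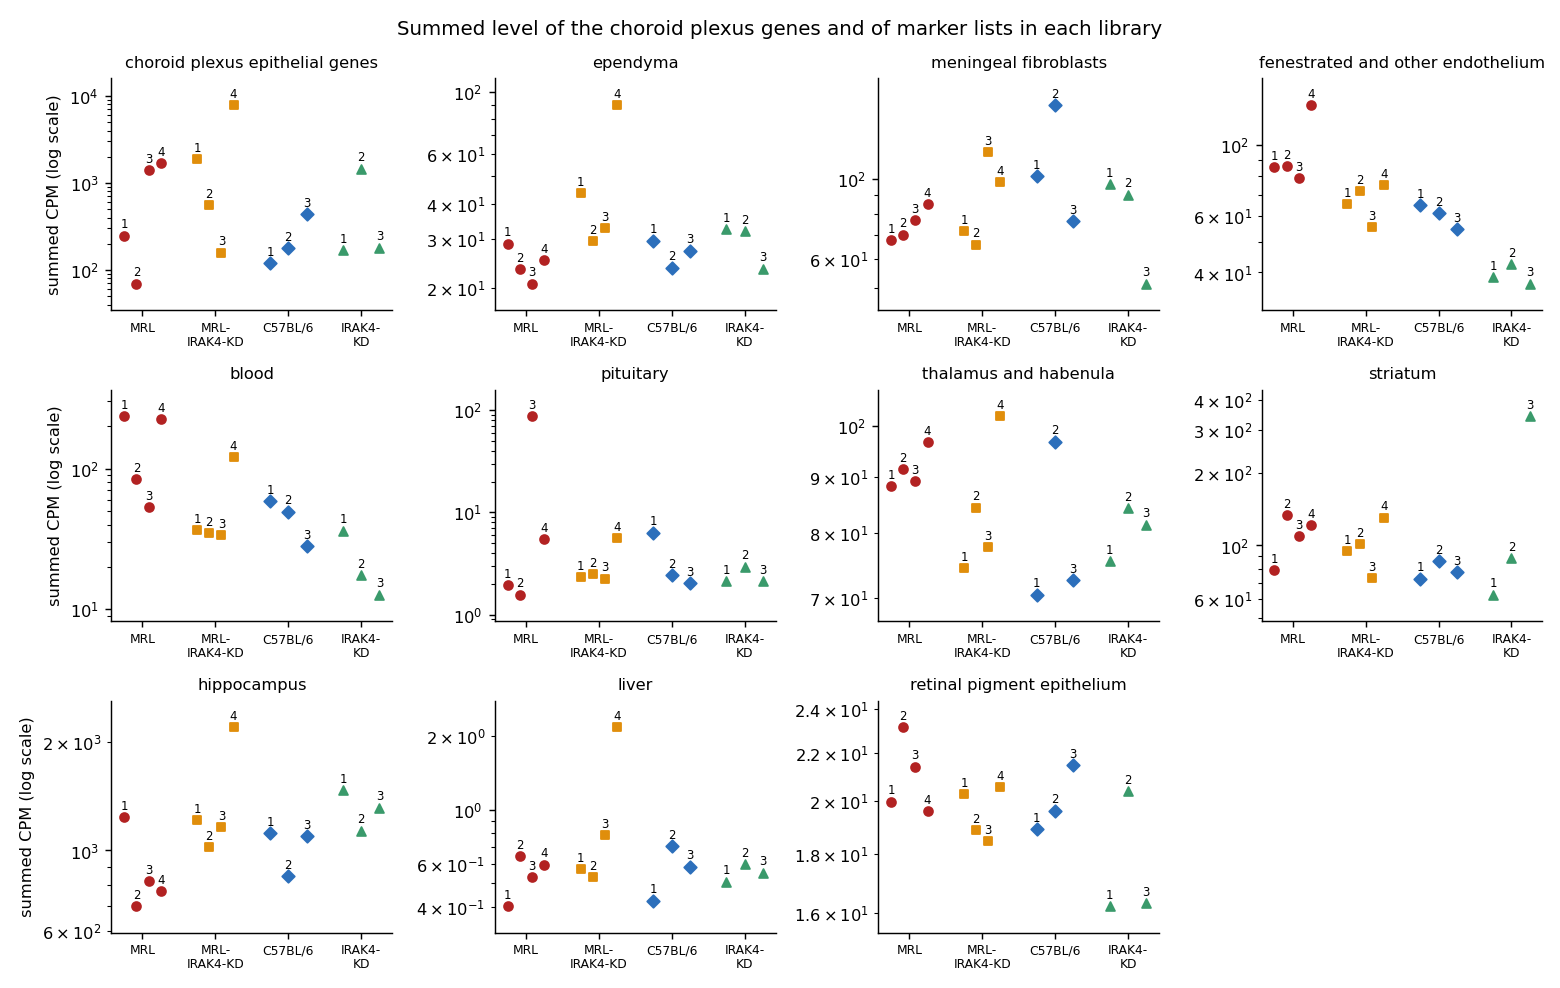
Summed level of the choroid plexus epithelial genes and of 10 marker lists in each library, in CPM on a log scale, by group. Points are single mice with the replicate number beside them. The choroid plexus sum runs from 69.8 to 7833 CPM, and the pituitary list peaks in MRL replicate 3, the striatal list in the library labelled IRAK4-KD replicate 3.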

How the data were processed

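Labels placed 4 of the 14 hippocampal libraries in MRL, 4 in MRL-IRAK4-KD, 3 in C57BL/6 and 3 in IRAK4-KD, and p-values measure the spread between these samples. Per the labels, libraries were made from poly(A) RNA with a KAPA HyperPrep mRNA kit, whereas the study's methods name SMART-seq and Nextera kits. Per the submitters' processing notes, the authors used HISAT2 2.1.0 with mm10, SAMtools 1.9 and StringTie 2.1.0. The deposited tables hold unnormalized counts, as whole numbers, for genes and for transcripts. Since StringTie computes them from coverage with a set read length, no counting interval is given. Whether strand was used is not given in the sources used here. Identifiers match GENCODE M21. Rows other than the 55536 Ensembl genes (of 81881 rows) held 0.0254% to 0.188% of counts and were left out. From the sequencing core's deposited sheet, read numbers and qPCR concentrations (other units) were read. Every column of per-sample counts was used.

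A total of 10 counts over the libraries was required, which left 38070 genes for edgeR 4.0.16 (R 4.3.3; TMM, robust quasi-likelihood, 1 model of the 4 groups) with Benjamini-Hochberg adjustment at 0.05. The study used DESeq2 1.30.1. Levels are CPM with TMM scaling, and log2 values of single libraries use a pseudocount of 0.1. Fold changes from the fit are on the log2 scale. The genes, lists and rules were chosen with earlier results of these data known. Named genes are the 10 genes, Irak4 and Fas, called and the 5 highest genes of the list of 35, and the 10 genes most like the set. Also named are the defining genes of most marker lists, among them Plvap, and overlapping or neighbouring genes. The latter were picked after values were seen, as were Zbtb20, Rgr, Rlbp1 and Best1 and the values given for Plvap in single libraries. Alternatives were RLE factors, library size only, DESeq2 1.42.0, limma-voom 3.58.1 with quality weights, no filter, filterByExpr, a replicate block, summed transcript counts, only the groups compared, and each library left out. Leaving out both MRL-IRAK4-KD replicate 4 and the library labelled IRAK4-KD replicate 3 was added after seeing the data, as were the spreads and correlations without either library. Methods were tested on simulated data. Sequences are from RefSeq (GRCm38.p6), and plotting used matplotlib 3.10.9 (Python 3.11.15).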

Additional observations from a re-analysis of the deposited data

Results flagged for a closer look

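Within the 4 MRL and the 4 MRL-IRAK4-KD libraries, the highest and lowest values of each of the 10 genes were compared with the nearest other value by Dixon's criterion for 4 samples. In none of these 20 groups did a library pass it, including Ttr at 7631 CPM in the MRL-IRAK4-KD group. For Cldn2 it could not single out a low library there, since replicates 3 and 4 lay close together at 0.140 and 0.200 CPM. The genes were selected on these same values and each group held only 4 libraries, so no conclusion is drawn from the absence of a pass. Groups of 3 were not tested, and none of the 10 genes passed the edgeR test of the interaction, against 0.00263% of all genes.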

How the results depend on the processing

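The number of the 10 genes called was 0 under each alternative run, 24 beside the main fit for the 4 comparisons. For the interaction the fit of only the groups compared could not be made. For the 35 further genes it was 0 in edgeR, DESeq2 and limma-voom and in edgeR without either library that stands apart. With 1 library left out at a time, the median log2 fold change of the 10 genes ranged from -1.16 to -0.22 for MRL over MRL-IRAK4-KD, 0.88 to 1.66 for MRL over C57BL/6, -0.42 to 1.19 for IRAK4-KD over C57BL/6, 0.55 to 2.16 for MRL-IRAK4-KD over IRAK4-KD and -1.27 to 0.57 for the interaction. Under the remaining alternatives it ranged from -0.81 to 0.26, 0.92 to 1.33, 0.74 to 1.19, -0.00 to 1.16 and -0.07 to 1.07. Among these remaining alternatives, limma-voom with quality weights gave the value furthest from the main one for the first (0.26), the fourth (-0.00) and the interaction (1.07), the cause of which was not tested. With the replicate number as a block, the median was -0.74, 0.92, 0.74, 0.52 and 0.07, and none of the 10 genes was called. Same-numbered samples of different groups had correlations of -0.25 to 0.37, and 4 of 19 were over 0.1. Samples of different number are not set beside them, so these values do not settle whether the numbers pair the samples. The counts come from coverage, so depth does not give a counting error for them.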

Other observations

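Each of the 91 pairs of libraries was searched for genes that lay at least 4-fold below the median of the remaining 12 libraries in both. A median of 3 and at most 23 of the 16104 genes did so in a pair. Every pair within the libraries labelled MRL-IRAK4-KD or IRAK4-KD held at least 9 such genes, and every other pair at most 7. Cldn2 was among such genes in 1 pair, MRL-IRAK4-KD replicates 3 and 4, with 10 genes in all. The other 9 were 2 entries of Ccl21b, a chemokine gene with near-identical copies, and 7 predicted genes, 8 of the 9 on chromosome 4. Reads of such copies can be divided uncertainly between entries. The paper reports Ccl21 b, c and d mRNA as higher in MRL than in MRL-IRAK4-KD hippocampi. Why these 9 entries were low was not tested. For Cldn2 the levels in this pair were 0.140 and 0.200 CPM, and the lowest of the other 12 was at 0.693 CPM. Gm5859, at 0.255 and 0.138 CPM in the pair, was also below the lowest of the others (0.285 CPM). For the other 8 entries, such as Gm17167 at 0.471 and 0.689 CPM, some other library was as low as at least 1 of the pair. These genes were named after their values were seen.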
